A study of Mus musculus with 46 samples.

Results

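The 10 genes described here are the 4 platelet-derived growth factor ligands Pdgfa, Pdgfb, Pdgfc and Pdgfd, their receptors Pdgfra and Pdgfrb, and the stromal or pericyte-linked genes Cd248, Prkg1, Mamdc2 and Rgs5. They are 10 of the 56854 genes counted in both tables of the series. They were chosen by their readout, since Pdgfd, Mamdc2, Prkg1 and Cd248 were seen to be higher after Pbrm1 disruption in tumours driven by SS18::SSX1, and the other members complete the ligand and receptor families or mark pericytes. The values of the SS18::SSX1 comparison therefore selected the members, and they are given below as a description with no test. RNA sequencing covered 46 mouse synovial sarcomas, with 1 library for each tumour.

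All 46 mice carried a human fusion gene, expressed from the Rosa26 locus once TATCre protein had been injected into the limb in the second week of life. In the hSS2 background the fusion was SS18::SSX2, with 13 control tumours, 8 tumours that also carried floxed Pbrm1 (Pbrm1-fl), 8 with floxed Arid1a (Arid1a-fl) and 8 with floxed Arid1b (Arid1b-fl). In the hSS1 background it was SS18::SSX1, with 5 control and 4 Pbrm1-fl tumours. The same Cre switched on the fusion and excised the floxed exons, so controls had received Cre too, and recombination of a floxed allele can be incomplete in a tumour. Mice of both sexes were used, and tumours were taken at morbidity, an age that varied and that the labels do not give. Whole frozen tumour tissue was extracted, so the libraries hold RNA of tumour cells, vessels, stroma and limb muscle, and fewer cells of a type cannot be told apart from less RNA per cell.

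PDGF ligands are secreted dimers that bind 2 receptor tyrosine kinases, PDGFRA and PDGFRB, found mainly on mesenchymal cells. PDGF-A and PDGF-C act chiefly through PDGFRA, and PDGF-B and PDGF-D chiefly through PDGFRB. PDGF-C and PDGF-D are released as latent forms that need cleavage before they bind. PDGF-B from endothelial cells recruits pericytes, the mural cells of small vessels, which carry PDGFRB and often express Rgs5, a regulator of G-protein signalling. Cd248 encodes endosialin, a membrane protein of pericytes and activated fibroblasts. Prkg1 encodes the cGMP-dependent protein kinase of smooth muscle, and Mamdc2 a secreted protein with MAM domains. Synovial sarcoma is itself a mesenchymal tumour, so these genes need not be confined to vessels in it.

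Promoter sequence is shown for Pdgfd and Prkg1, the members with the largest differences in hSS1 among those that passed the filter on low counts. Each run is the 250 bases before an annotated RefSeq start (GRCm38.p6), 5′ to 3′ on the gene's strand, with capitals marking the motif matches found. The Pdgfd run covers chr9:6168236-6168485 on the plus strand, and the Prkg1 runs cover chr19:31765034-31765283 and chr19:31664371-31664620 on the minus strand.
Pdgfd promoter 1: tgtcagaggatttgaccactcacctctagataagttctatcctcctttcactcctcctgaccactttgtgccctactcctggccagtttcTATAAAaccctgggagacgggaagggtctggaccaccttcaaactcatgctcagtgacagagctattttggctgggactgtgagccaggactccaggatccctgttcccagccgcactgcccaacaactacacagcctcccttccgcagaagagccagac
Prkg1 promoter 1: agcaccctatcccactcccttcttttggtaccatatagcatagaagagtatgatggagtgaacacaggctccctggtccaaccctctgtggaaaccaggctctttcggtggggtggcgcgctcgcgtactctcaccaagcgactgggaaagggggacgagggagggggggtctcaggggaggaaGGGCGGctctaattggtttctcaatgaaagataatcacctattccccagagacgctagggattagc
Prkg1 promoter 2: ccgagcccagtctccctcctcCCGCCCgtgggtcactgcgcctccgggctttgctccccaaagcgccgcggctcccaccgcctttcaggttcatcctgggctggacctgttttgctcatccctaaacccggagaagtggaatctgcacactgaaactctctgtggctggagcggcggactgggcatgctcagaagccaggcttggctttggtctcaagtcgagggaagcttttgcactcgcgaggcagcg
Both strands were searched for the AP-1 site and the CArG box, given here by name, and for the letters GGAATG, which TEAD factors bind. They were also searched for the TATA box, with the letters TATAAA. The motif called the GC box was searched as GGGCGG. The Pdgfd run held the TATA box 160 bases before the start, and the Prkg1 runs each held a GC box, 66 and 229 bases before their starts. Over 32851 RefSeq windows of the same length, the TATA box occurred in 12.4% and the GC box in 32.7%. The other motifs, which occurred in 6.75% (AP-1), 12.6% (TEAD) and 1.47% (CArG box) of windows, were not in these 3 windows. The table held promoters for 6 of the 10 members.

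In GRCm38 the ligand genes lie at chr5:138976014-138997370 (Pdgfa), chr15:79995874-80014977 (Pdgfb), chr3:81036416-81214040 (Pdgfc) and chr9:6168584-6378850 (Pdgfd). The receptors lie at chr5:75152292-75198215 (Pdgfra) and chr18:61045150-61085061 (Pdgfrb). Rgs5 lies at chr1:169655501-169695813. Chromosome 19 holds Cd248 (chr19:5068078-5070682, a single exon), Mamdc2 (chr19:23302609-23448442) and Prkg1 (chr19:30564489-31765033, a span of 1200.5 kb). In the hSS1 comparison the median log2 fold change of chromosome 19 genes was 0.04, beside 0.01 over all genes tested. Exons of Pdgfa, Pdgfc and Pdgfra overlap annotated antisense transcripts by 813 bases (Pdgfa), 147 bases (Pdgfc) and 456 and 166 bases (Pdgfra), and the strand setting of the counting was not stated, so part of their counts is uncertain.

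Libraries held 10613976 to 21294657 counts in hSS2 and 10137668 to 14130024 in hSS1. Levels are given as CPM, counts scaled to a common library size after TMM correction for composition, and tests are edgeR quasi-likelihood tests with Benjamini-Hochberg adjustment over all genes tested and a threshold of 0.05. Targeted genes were lower in the floxed groups, at 95 to 139 CPM against 171 to 316 in hSS2 controls for Pbrm1 and 229 to 276 against 238 to 587 for Arid1a, where control replicate 9 (238 CPM) lay among the floxed tumours. Arid1b was at 111 to 347 CPM in Arid1b-fl and 222 to 686 in control tumours, and its difference did not pass the threshold (edgeR adjusted p = 0.145). In hSS1, Pbrm1 was at 102 to 252 CPM in floxed and 275 to 373 in control tumours, and its difference did not pass the threshold (edgeR adjusted p = 0.193). Mouse numbers in the sample titles fell into 3 ranges that went with the floxed gene, and values against the controls of the same range are given beside each call that they end or add.

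Per unit of exon length, Cd248 and Pdgfra were the most abundant members in hSS2 tumours, and Mamdc2 the least. Median levels over the 37 hSS2 tumours were 54.7 RPKM for Cd248, 42 for Pdgfra, 25.3 for Pdgfa, 23.6 for Rgs5 and 16.3 for Pdgfrb. They were 9.23 RPKM for Pdgfc, 7.74 for Prkg1, 7.50 for Pdgfb, 2.13 for Pdgfd and 0.475 for Mamdc2. Among hSS2 controls Prkg1 varied most, its highest level being 26.2 times its lowest, whereas Pdgfra levels in the same tumours differed by 1.87 times. In hSS1 control tumours, which were scaled separately, Pdgfa had the highest mean level (41.7 ± 7.52 RPKM, SD, n = 5), followed by Pdgfra (22.6 ± 10.8), Rgs5 (20.5 ± 5.78) and Cd248 (15.2 ± 7.20). The spreads of the last 3 overlapped.

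**Figure D1:**
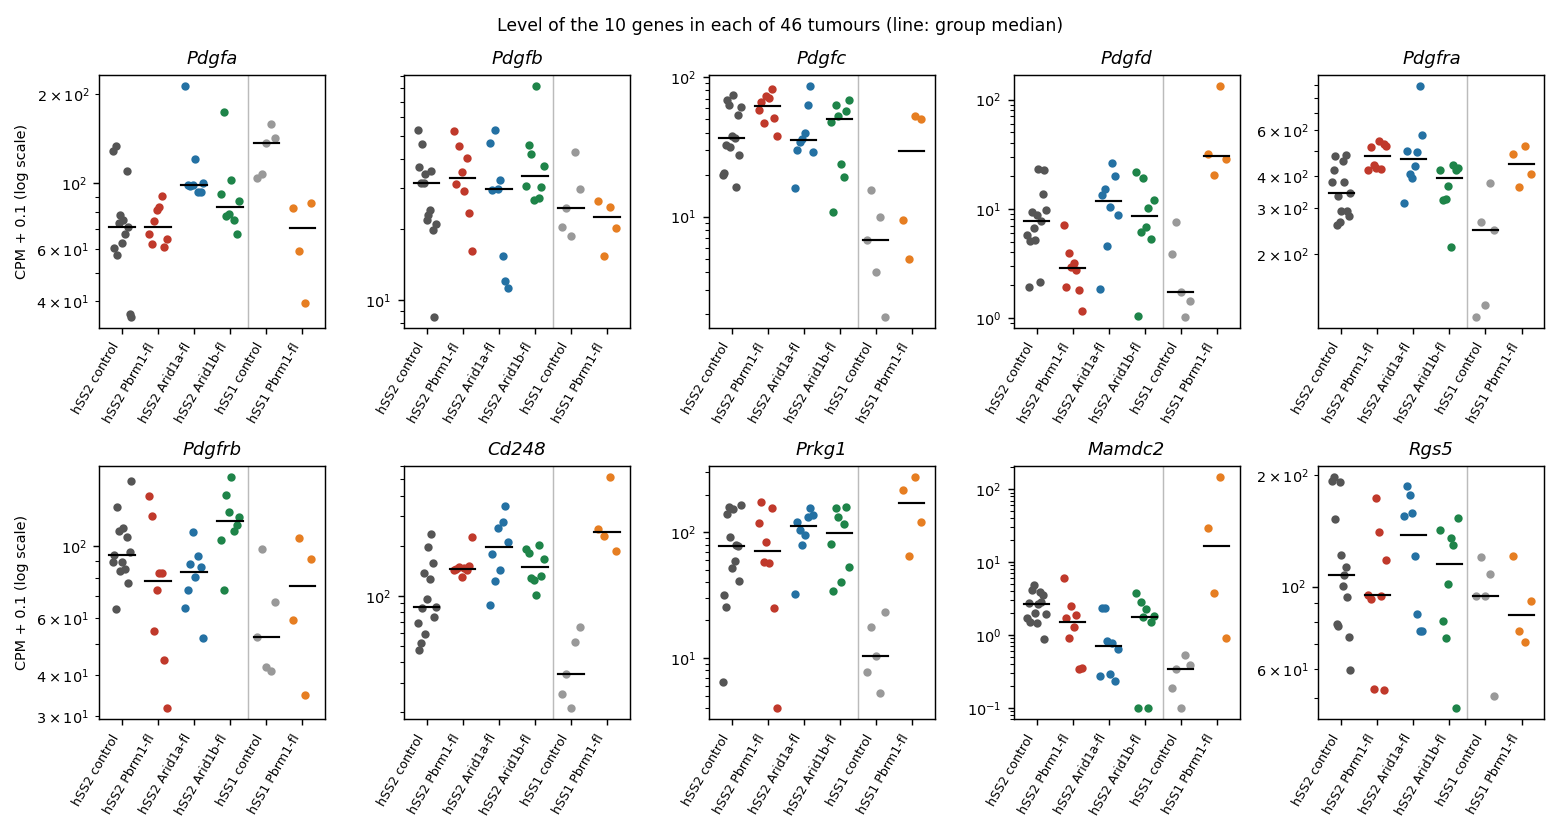
Level of each gene (CPM + 0.1, log axis) in every tumour by group, with the group median as a line. In hSS1 the Pbrm1-fl tumours lie above every control for Pdgfd, Cd248, Prkg1 and Mamdc2 and below every control for Pdgfa, whereas in hSS2 the groups overlap for all 10 genes.

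Pbrm1 disruption in hSS1 went with higher Pdgfd, the comparison by which the members were selected. Pdgfd, a PDGFRB ligand, was at 3.72, 7.48, 1.63, 0.929 and 1.34 CPM in the control tumours and at 31.7, 20.2, 133 and 28.4 CPM in the Pbrm1-fl tumours. The groups did not overlap, and replicate 3 of the floxed tumours stood far above the others. Its fitted log2 fold change was 4.13 (SE 0.80), and it ranged from 3.16 to 4.82 when each hSS1 tumour was left out in turn. Against the 3 controls of the same mouse number range it was 5.35.

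Cd248, endosialin, was at 25.4, 33.7, 21.1, 52.7 and 65.2 CPM in hSS1 controls and at 251, 229, 514 and 186 CPM in Pbrm1-fl tumours, a log2 fold change of 2.90 (SE 0.42). Prkg1, the cGMP-dependent kinase, was at 7.71, 17.5, 10.4, 5.15 and 23.1 CPM in controls and at 218, 65.3, 274 and 121 CPM in floxed tumours, a log2 fold change of 3.73 (SE 0.55). In both genes the lowest floxed tumour lay well above the highest control. Mamdc2 was at 0.0887, 0.241, 0, 0.429 and 0.288 CPM in controls and at 29.2, 3.62, 145 and 0.809 CPM in floxed tumours. Its controls held 0 to 6 counts, so it stayed below the filter on low counts there and the mean ratio was set almost wholly by floxed replicates 1 and 3. Floxed replicate 3 was the highest of its group in all 4 of these genes and had the lowest Pbrm1, 102 CPM. The same tumour was also the highest in Pdgfc and Pdgfra. It was the lowest in Pdgfa and in the summed level of synovial sarcoma markers (357 CPM). A link of these levels to Pbrm1 was not tested.

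The members that the selection did not name also differed among themselves in hSS1. Pdgfa, a PDGFRA ligand, was at 105, 107, 137, 159 and 143 CPM in controls and at 82.3, 58.9, 39.5 and 85.8 CPM in Pbrm1-fl tumours, with every floxed tumour below every control and a log2 fold change of -0.96 (SE 0.24). Pdgfc, the other PDGFRA ligand of the family, was at 6.74, 15.3, 3.94, 9.79 and 1.82 CPM in controls and at 9.40, 4.89, 52.2 and 49.6 CPM in floxed tumours. Its difference (log2 1.94, SE 0.80) came from floxed replicates 3 and 4, while replicates 1 and 2 lay within the control range. Pdgfra itself was at 115, 266, 127, 376 and 248 CPM in controls and at 486, 364, 520 and 405 CPM in floxed tumours, where 3 of 4 exceeded every control (log2 0.97, SE 0.34).

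Pdgfb, the endothelial ligand, was at 18.7 to 42.4 CPM in hSS1 controls and 15.2 to 26.4 in Pbrm1-fl tumours (log2 -0.32, SE 0.28). Pdgfrb, the receptor of pericytes, was at 41.2 to 98.0 and 34.8 to 105 CPM (log2 0.27, SE 0.36), and Rgs5 at 50.6 to 120 and 70.8 to 121 CPM (log2 -0.06, SE 0.26). All 3 overlapped widely. Of the 9 members that passed the filter in hSS1, 4 had groups that did not overlap (Pdgfd, Cd248 and Prkg1 higher, Pdgfa lower), beside 6.82% of the 17786 genes tested. The edgeR test called 0.00562% of those genes, 1 gene in all, whereas DESeq2's Wald test called 1244 of 19851 genes (6.27%). Since this comparison chose the members, nothing is read from these shares.

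The label of pericyte genes was checked against 14 other pericyte and mural markers. Their summed level was 316 to 409 CPM in hSS1 controls and 245 to 373 CPM in Pbrm1-fl tumours, and of 13 that passed the filter 6 had a log2 fold change above 0 and 7 below, with a median of -0.04. Together with Pdgfrb and Rgs5, they did not share the higher levels of Cd248, Prkg1, Mamdc2 and Pdgfd, so the latter are named here by gene. Over the 9 hSS1 tumours, centred on their groups and not tested, Pdgfd correlated with the mean log2 CPM of these markers at r = 0.72. For Prkg1 r was 0.51 and for Cd248 -0.32. The part of pericytes in the members' levels was not tested. Fibroblast markers were higher beside Cd248, Prkg1, Mamdc2 and Pdgfd. The summed level of 12 fibroblast genes was 411 to 3281 CPM in hSS1 controls and 5548, 15636, 4766 and 3560 CPM in floxed replicates 1 to 4, with no overlap. Floxed replicate 2, the highest in fibroblast markers, was the lowest of its group in Pdgfd and Prkg1. The summed level of 9 synovial sarcoma markers was 708 to 1127 CPM in hSS1 controls and 357 to 687 CPM in floxed tumours. These sums likewise did not overlap. With each gene weighted equally, as the mean log2 CPM of the genes that passed the filter, the groups overlapped for both lists. For the 9 fibroblast genes that passed, this mean was 3.06 to 6.39 in hSS1 controls and 5.45 to 7.62 in floxed tumours. For synovial sarcoma markers every floxed tumour lay within the control range of 3.14 to 6.48. The part of fibroblast or tumour cell content in these differences was not tested.

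In the hSS2 background Pbrm1 disruption went with lower Pdgfd. Pbrm1 itself had a log2 fold change of -1.27 (SE 0.09) there and of -0.75 (SE 0.24) in hSS1, so its loss was less deep in hSS1. Pdgfd was at 1.81 to 23.1 CPM (median 7.68) in control tumours and at 1.05 to 7.01 CPM (median 2.76) in Pbrm1-fl tumours. Each of the 8 was under the median of the controls, and 2 were under every control. It fell by 1.63 on the log2 scale (SE 0.50, edgeR adjusted p = 0.0384), the only member called of 10 beside 7.35% of the 20083 genes tested. The call was kept in 11 of 21 fits that left out 1 library (adjusted p 0.0166 to 0.0792), and against the 4 controls of its own mouse number range, at 1.81 to 9.19 CPM, the log2 difference was -0.85 (adjusted p = 0.605). Leaving out any 1 of floxed replicates 2 to 8, or control replicate 8, 11 or 12, ended the call.

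Other tissue markers lay lower beside Pdgfd in these tumours. The log2 fold changes of 11 of 11 skeletal muscle markers (median -0.88) and 11 of 12 fibroblast markers (median -0.40) were below 0, beside a median of -0.00 over all genes, though none was called. Over the 37 hSS2 tumours, within groups, Pdgfd varied with the mean level of the skeletal muscle markers (r = 0.46, permutation p = 0.00626, adjusted p = 0.0185; rho = 0.36, p = 0.0373; r = 0.36 without the 2 tumours farthest in Pdgfd). It varied with that of the fibroblast markers at r = 0.41 (permutation p = 0.0122, adjusted p = 0.0350; rho = 0.36, p = 0.0363; r = 0.32 without those 2). After adjustment neither rho passed (permutation test, adjusted p = 0.0785 for both). Centred within group and mouse number range, an alternative chosen after the data were seen, r was 0.45 with muscle markers (permutation test, adjusted p = 0.0348). With fibroblast markers it was 0.38 (adjusted p = 0.0686). Pdgfc, Prkg1 and Mamdc2 also passed with both scores. With muscle and fibroblast markers r was 0.55 and 0.65 for Pdgfc, 0.57 and 0.74 for Prkg1, and 0.48 and 0.65 for Mamdc2. Their log2 fold changes in Pbrm1-fl tumours were 0.54, 0.02 and -0.51, none of them called. The part of either tissue in the lower Pdgfd was not tested.

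Cd248 in hSS2 Pbrm1-fl tumours lay in a narrow band, from 129 to 224 CPM (median 145), within the control range of 47.1 to 233 CPM (median 85.0). All 8 were above the control median, but against all controls the difference was not called (log2 0.49, SE 0.25, edgeR adjusted p = 0.235). The 4 controls of the same mouse number range held 47.1 to 84.7 CPM, below every floxed tumour, and against them alone the log2 fold change was 1.28 (adjusted p = 0.0272). With those controls 477 genes (2.38%) were called, and Cd248 was the only member among them. Pdgfra was at 421 to 545 CPM in floxed tumours and 258 to 483 in controls, with all 8 floxed tumours above the control median (log2 0.42, SE 0.15, adjusted p = 0.0774).

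The other members did not pass the threshold in hSS2 Pbrm1-fl tumours. Pdgfc was at 37.7 to 82.4 CPM in floxed tumours, all 8 above the control median of 36.3 (log2 0.54, SE 0.30, edgeR adjusted p = 0.296). Prkg1 was at 3.92 to 174 CPM in floxed and 6.32 to 166 CPM in control tumours, a difference of 0.02 on the log2 scale (SE 0.47). Mamdc2 was at 0.245 to 6.04 CPM in floxed and 0.792 to 4.80 CPM in control tumours (log2 -0.51, SE 0.60). Pdgfrb (log2 -0.33, SE 0.20), Rgs5 (-0.23, SE 0.25), Pdgfb (0.20, SE 0.28) and Pdgfa (-0.06, SE 0.20) had adjusted p of 0.326 to 0.899. Floxed replicate 8 held the lowest Prkg1, Pdgfrb and Pdgfd of the group (3.92, 31.6 and 1.05 CPM) and its lowest summed fibroblast level (838 CPM, in a group reaching 14793), but its highest Cd248.

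**Figure D2:**
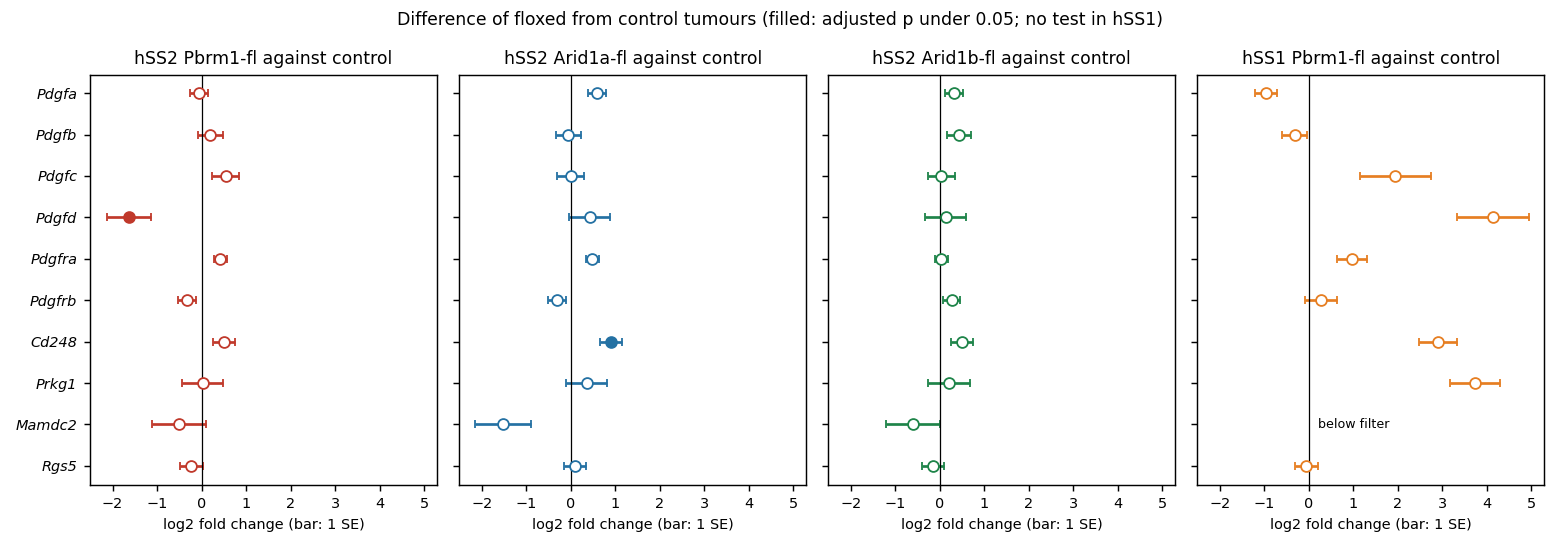
Fitted log2 fold change of each gene in floxed against control tumours of the same background, with bars of 1 SE and filled points for an adjusted p under 0.05 (hSS1 carries no test). Pdgfd lies at -1.63 in hSS2 and 4.13 in hSS1 after Pbrm1 disruption, and Cd248 lies above 0 in all 4 panels.

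Arid1a disruption in hSS2 went with higher Cd248. It was at 87.5 to 347 CPM (median 195) in Arid1a-fl tumours, all 8 above the control median of 85.0 CPM and 3 above every control. Cd248 rose by 0.90 on the log2 scale (SE 0.25, edgeR adjusted p = 0.0421), again the only member called, beside 3.17% of genes tested. The call was kept in 11 of 21 fits that left out 1 library (adjusted p 0.0146 to 0.103), and ended without control replicate 4, 6, 7, 12 or 13 or floxed replicate 2, 4, 5, 7 or 8. Against the 5 controls of the same mouse number range, at 74.7 to 233 CPM, the log2 fold change was 0.59 (adjusted p = 0.197).

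Pdgfa was at 93.1 to 213 CPM in Arid1a-fl tumours and 35.4 to 134 CPM in controls, with 7 of the 8 floxed tumours between 93.1 and 121 CPM. All 8 lay above the control median, and its log2 fold change was 0.59 (SE 0.20, edgeR adjusted p = 0.0834). Against the controls of the same mouse number range it was 0.84 (adjusted p = 0.0446). There Pdgfa took the place of Cd248 as the only member called, among 1405 genes (7%). Pdgfra was at 316 to 888 CPM (log2 0.48, SE 0.15, adjusted p = 0.0586). Mamdc2 was at 0.133 to 2.27 CPM in Arid1a-fl tumours, all 8 below the control median of 2.53 CPM and 6 below every control, without a call (log2 -1.52, SE 0.63, adjusted p = 0.146). DESeq2's Wald test called Pdgfa and Pdgfra besides Cd248, and 7.6% of all genes it tested.

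Pdgfd in Arid1a-fl tumours was at 1.76 to 26.3 CPM (log2 0.42, SE 0.46), and Prkg1 at 32.3 to 157 CPM (log2 0.36, SE 0.46). Pdgfrb (log2 -0.30, SE 0.20), Rgs5 (0.10, SE 0.25), Pdgfb (-0.05, SE 0.28) and Pdgfc (-0.00, SE 0.31) were likewise not called, with edgeR adjusted p of 0.349 to 0.999.

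**Figure D3:**
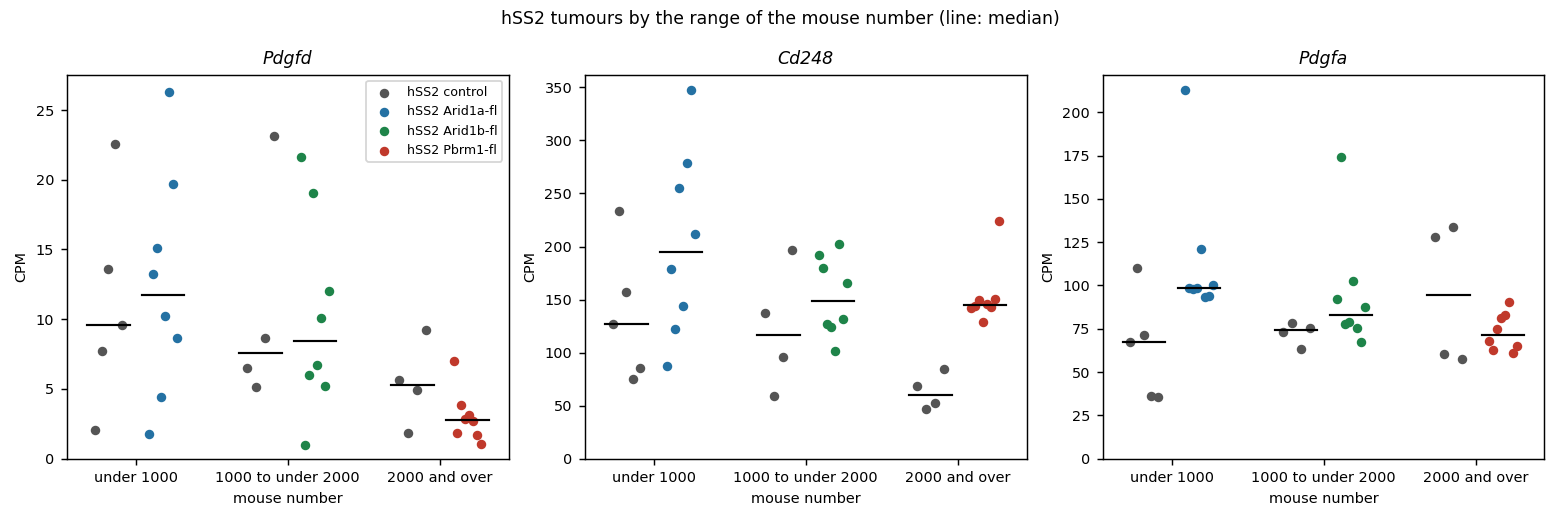
CPM of Pdgfd, Cd248 and Pdgfa in hSS2 tumours by the range of the mouse number, with medians as lines. Control tumours numbered 2000 and over hold 47.1 to 84.7 CPM of Cd248, below all 8 Pbrm1-fl tumours of that range, while their Pdgfd (1.81 to 9.19 CPM) overlaps that of the Pbrm1-fl tumours.

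Arid1b disruption in hSS2 called none of the members, beside 0.0548% of genes tested. None passed an unadjusted p under 0.05 either, and DESeq2's Wald test called none. Cd248 came closest, at 101 to 202 CPM, with all 8 Arid1b-fl tumours above the control median (log2 0.49, SE 0.25, edgeR adjusted p = 0.801). Pdgfrb was at 73.3 to 163 CPM, with 7 of 8 above the control median (log2 0.26, SE 0.19), and Pdgfb at 26.5 to 81.5 CPM (log2 0.43, SE 0.28). Mamdc2 had no count in 2 of the 8 floxed tumours and reached 3.64 CPM in another (log2 -0.60, SE 0.60). The other members had log2 fold changes from -0.15 (Rgs5) to 0.31 (Pdgfa), with adjusted p of 0.847 to 0.997.

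Between the floxed groups of hSS2, only Pdgfd was called. It was lower in Pbrm1-fl than in Arid1a-fl tumours (log2 difference -2.05, SE 0.54, edgeR adjusted p = 0.0102), beside 12.3% of genes, and lower than in Arid1b-fl tumours (log2 difference -1.77, SE 0.53, adjusted p = 0.0498), beside 4.37% of genes. The difference from Arid1a-fl kept its call in all 16 fits without 1 library of either group. The one from Arid1b-fl kept it in 4 of 16 (those without Pbrm1-fl replicate 1 or Arid1b-fl replicate 2, 3 or 7), and without a filter on low counts its adjusted p was 0.0683. Mean levels of Pdgfd ran from 12.4 ± 8.02 CPM (SD, n = 8) in Arid1a-fl through 10.2 ± 7.09 in Arid1b-fl and 9.27 ± 6.81 in control (n = 13) to 3.01 ± 1.85 in Pbrm1-fl tumours, and the first 3 did not differ beyond their spread. With DESeq2 size factors the difference from Arid1b-fl had an adjusted p of 0.0506, and Pdgfa was called lower in Pbrm1-fl than in Arid1a-fl tumours (log2 difference -0.67, adjusted p = 0.0459). No member was called between Arid1a-fl and Arid1b-fl tumours, where 0.0996% of genes were called. These comparisons share tumours, so they are not independent of each other. Each floxed group also filled a mouse number range of its own, so that the floxed gene and the range cannot be told apart from the floxed tumours alone, and Pdgfd in the controls of those ranges averaged 5.40 CPM (the Pbrm1-fl range), 10.9 CPM (Arid1b-fl) and 11.1 CPM (Arid1a-fl). With the range as a term in the fit, an alternative chosen after the data were seen, the log2 difference of Pdgfd was -1.01 (SE 0.86, edgeR adjusted p = 0.530) between Pbrm1-fl and Arid1a-fl and -0.76 (SE 0.89, adjusted p = 0.861) between Pbrm1-fl and Arid1b-fl tumours, and no member was called.

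For Cd248 the order of means was Arid1a-fl (203 ± 87.4 CPM, SD, n = 8), Pbrm1-fl (153 ± 29.3), Arid1b-fl (153 ± 36.8) and control (109 ± 58, n = 13), and neighbours did not differ beyond their spread. The order for Pdgfra was Arid1a-fl (501 ± 175 CPM), Pbrm1-fl (479 ± 53.8), Arid1b-fl (368 ± 78.2) and control (359 ± 80.6). Pdgfrb ran the other way for the 2 lower groups, from 120 ± 26.7 CPM in Arid1b-fl and 100.02 ± 25 in control to 81.0 ± 18.1 in Arid1a-fl and 79.5 ± 38.2 in Pbrm1-fl tumours, with no difference between floxed groups past the threshold.

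Genes that act around the ligands and receptors were counted in 4 lists, beside the 7.35% of all genes called in hSS2 Pbrm1-fl and 3.17% in Arid1a-fl tumours. The verbs below refer to the test against all 13 controls, and the adjusted p against the controls of the same mouse number range follows each gene given with values. Of 11 genes that activate PDGF ligands or act as co-receptors, 1 rose and none fell in Pbrm1-fl tumours. This was Nrp2, a neuropilin co-receptor, at 674 ± 177 CPM (SD, n = 8) against 344 ± 138 (n = 13), a log2 fold change of 0.97 (SE 0.18, edgeR adjusted p = 0.00105, same range 0.241). The list's median was -0.13, beside -0.00 over all genes, and none of its members was called in Arid1a-fl or Arid1b-fl tumours.

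Of 24 genes of PDGF receptor signal transduction, 1 rose and 3 fell in Pbrm1-fl tumours. Gab1, a docking protein, had a log2 fold change of 1.24 (SE 0.38, edgeR adjusted p = 0.0370, same range 0.236) that was 0.26 without floxed replicate 3 (adjusted p = 0.636). Nck1, an adaptor protein, fell by 0.34 (SE 0.09, adjusted p = 0.0125, same range 0.521) and Rasa1, a Ras GTPase-activating protein, by 0.23 (SE 0.06, adjusted p = 0.0213, same range 0.300) on the log2 scale. The remaining gene was the kinase Fyn. In Arid1a-fl tumours 1 of the 24 rose, the phosphatase gene Ptpn2 (log2 0.30, SE 0.08, adjusted p = 0.0386, same range 0.0527), and in Arid1b-fl tumours none was called.

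Immediate-early genes, which growth factor receptors induce within minutes, had 1 of 14 lower in Pbrm1-fl tumours, Jun, at 30.4 ± 16.8 CPM against 111 ± 100 (log2 -1.87, SE 0.47, edgeR adjusted p = 0.0113, same range 0.256). In Arid1a-fl tumours 1 of 14 rose, Myc, by 1.54 on the log2 scale (SE 0.41, adjusted p = 0.0379, same range 0.108), and 13 of 14 log2 fold changes were below 0, with a median of -0.78 beside -0.04 over all genes. Without floxed replicate 1 the Myc value was 0.71 (adjusted p = 0.276). Around Prkg1, 1 of the 14 tested genes, of 16 listed, of cGMP signalling rose in Pbrm1-fl tumours, Pde5a, the cGMP phosphodiesterase (log2 1.33, SE 0.38, adjusted p = 0.0252, same range 0.205), and 1 fell, Ppp1r12a, a myosin phosphatase subunit (log2 -0.17, SE 0.05, adjusted p = 0.0485, same range 0.701). Arid1a-fl and Arid1b-fl tumours had none.

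Markers of mural cells and other tissue components were counted in the same fits. Of 14 pericyte and mural markers, Ndufa4l2 rose (log2 1.59, SE 0.36, edgeR adjusted p = 0.00585, same range 0.0584) and Cspg4, the NG2 proteoglycan, fell by 0.72 (SE 0.18, adjusted p = 0.0131, same range 0.0519) in hSS2 Pbrm1-fl tumours. Of 9 tested vascular smooth muscle markers 1 fell, Cnn1 (log2 -2.85, SE 0.84, adjusted p = 0.0325, same range 0.101), and of 12 endothelial markers 1 rose, Plvap (log2 0.82, SE 0.23, adjusted p = 0.0213, same range 0.546). None of the fibroblast, macrophage, skeletal muscle or platelet markers was called there. The log2 fold changes were below 0 for 8 of 9 synovial sarcoma markers (median -0.72) and 8 of 9 vascular smooth muscle markers (median -0.71), as for the skeletal muscle and fibroblast markers given beside Pdgfd, and above 0 for 9 of 10 macrophage markers (median 0.39). In Arid1a-fl tumours the only marker called was Zic1 of the 9 synovial sarcoma genes (log2 -4.11, SE 1.18, adjusted p = 0.0482, same range 0.0222). In Arid1b-fl tumours the platelet genes Itgb3 and Gp1ba were called, and without replicate 5 their log2 fold changes were 0.26 and 0.64 (adjusted p = 0.999 and 0.978). Against the controls of the same range neither was called.

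Of the 11 list genes named for Pbrm1-fl tumours, none passed the threshold against the 4 controls of the same mouse number range, and 6 kept their call in every fit without 1 library. Against such controls 1 of the 3 named for Arid1a-fl (Zic1) and none of the 2 for Arid1b-fl tumours passed. Summed levels of the 14 pericyte and mural markers were 212 to 662 CPM in hSS2 control, 227 to 574 in Pbrm1-fl, 247 to 468 in Arid1a-fl and 351 to 739 in Arid1b-fl tumours. Those of the 12 fibroblast markers were 1437 to 16380, 838 to 14793, 2060 to 10696 and 3672 to 20498 CPM. No gene of any marker list was at 0 in every library of a group, and the part of these markers in the members' differences was not tested.

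Over the 37 hSS2 tumours, which the selection of the members did not use, the genes varied in linked groups. Log2 CPM values were centred on their group means, and 18 of 45 pairs passed a permutation test within groups after adjustment over the 45 pairs, 13 of them with a positive correlation. Prkg1 varied with Pdgfrb (Pearson's r = 0.63, permutation p = 0.00019, adjusted p = 0.00427; Spearman's rho = 0.60, permutation p = 0.00031; r = 0.50 without the 2 tumours farthest from the median of Pdgfrb). It also varied with Pdgfc (r = 0.60, permutation p = 0.00002, adjusted p = 0.0009; rho = 0.63, p = 0.0001; r = 0.60 without the 2 farthest in Pdgfc). Pdgfc and Pdgfd correlated at r = 0.58 (permutation p = 0.00073, adjusted p = 0.00963; rho = 0.47, p = 0.00566; r = 0.46 without the 2 farthest in Pdgfc). Pdgfrb and Mamdc2 correlated at r = 0.53 (permutation p = 0.00089, adjusted p = 0.00963; rho = 0.50, p = 0.0027; r = 0.42 without the 2 farthest in Pdgfrb).

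Pdgfa varied with Pdgfb (r = 0.53, permutation p = 0.00107, adjusted p = 0.00963; rho = 0.52, p = 0.00153; r = 0.50 without the 2 farthest in Pdgfa) and Rgs5 (r = 0.42, permutation p = 0.0112, adjusted p = 0.0353; rho = 0.45, p = 0.00723; r = 0.50 without the same 2). It ran against Pdgfc (r = -0.47, permutation p = 0.00707, adjusted p = 0.0353; rho = -0.31, p = 0.0781; r = -0.28 without the same 2), a relation that rested on those tumours. Pdgfra and Cd248 correlated at r = 0.46 (permutation p = 0.0107, adjusted p = 0.0353; rho = 0.40, p = 0.0291; r = 0.36 without the 2 farthest in Pdgfra), and both ran against Pdgfb. For Pdgfb and Pdgfra, r was -0.44 (permutation p = 0.0137, adjusted p = 0.0368; rho = -0.40, p = 0.0205; r = -0.58 without the 2 farthest in Pdgfb). For Pdgfb and Cd248, r was -0.44 (permutation p = 0.0154, adjusted p = 0.0384; rho = -0.50, p = 0.00316; r = -0.57 without the same 2). Without centring on the group means, 7 of 45 pairs passed. Centring within both group and mouse number range, an alternative chosen after the data were seen, left 12 of 45, and of the pairs named here Pdgfa with Rgs5 (r = 0.35, permutation p = 0.0365, adjusted p = 0.0912) and Pdgfb with Cd248 (r = -0.31, permutation p = 0.117, adjusted p = 0.219) did not pass. Within the ranges Pdgfra and Cd248 correlated at r = 0.59 (permutation p = 0.00091, adjusted p = 0.0119). In the 9 hSS1 tumours, centred on their groups and not tested, r was -0.12 for Prkg1 with Pdgfrb and 0.11 for Prkg1 with Pdgfc. It was 0.60 for Pdgfc with Pdgfd. Pdgfa gave 0.26 with Pdgfb, 0.22 with Rgs5 and -0.27 with Pdgfc. Pdgfra and Cd248 gave 0.73. Pdgfb gave 0.87 with Pdgfra and 0.71 with Cd248, opposite in sign to hSS2.

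**Figure D4:**
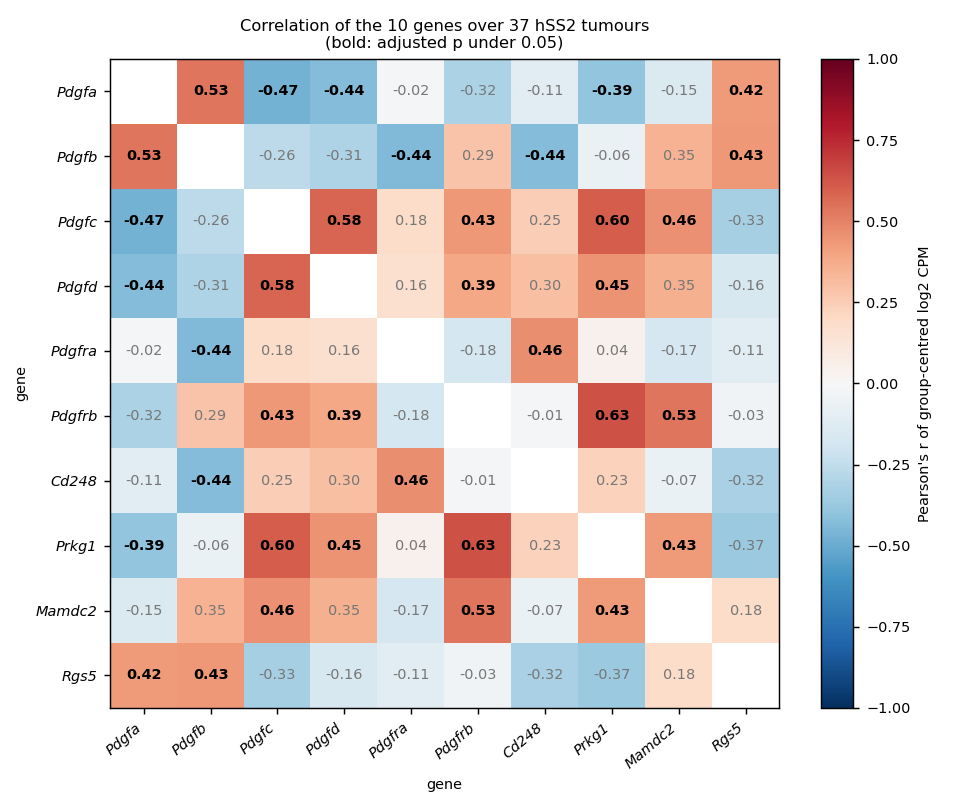
Pearson's r of group-centred log2 CPM between each pair of the 10 genes over the 37 hSS2 tumours, with pairs past the adjusted threshold in bold. Pdgfc, Pdgfd, Pdgfrb, Prkg1 and Mamdc2 correlate positively with each other, up to 0.63 for Pdgfrb and Prkg1. Pdgfa has r of -0.47 with Pdgfc, -0.44 with Pdgfd and -0.39 with Prkg1. Without the 2 tumours farthest in Pdgfa these are -0.28, -0.19 and -0.30. Centred within group and mouse number range, Pdgfa with Pdgfd and with Prkg1 did not pass.

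The same tumours were scored for 8 marker lists, each score being the mean log2 CPM of its genes that passed the filter, and 29 of 80 gene-by-list pairs passed after adjustment, 25 of them positive. Pdgfb followed the pericyte and mural score (r = 0.82, permutation p = 1e-05, the smallest the resamples can give; adjusted p = 0.000133; rho = 0.75, p = 0.00002; r = 0.77 without the 2 tumours farthest in Pdgfb, and likewise below in the gene named). Rgs5 followed the endothelial score (r = 0.71, permutation p = 1e-05, adjusted p = 0.000133; rho = 0.71, p = 1e-05; r = 0.69 without the 2 farthest), and its own pericyte and mural correlation did not pass (r = 0.36, permutation p = 0.0367, adjusted p = 0.0772; rho = 0.38, p = 0.0256; r = 0.40 without the 2 farthest). Prkg1 followed the fibroblast score (r = 0.74, permutation p = 1e-05, adjusted p = 0.000133; rho = 0.77, p = 1e-05; r = 0.75 without the 2 farthest). Pdgfrb followed several scores, among them the macrophage score (r = 0.68, permutation p = 0.00004, adjusted p = 0.000356; rho = 0.65, p = 0.00006; r = 0.60 without the 2 farthest) and the fibroblast score (r = 0.68, permutation p = 1e-05, adjusted p = 0.000133; rho = 0.66, p = 0.00005; r = 0.60 without the 2 farthest). It also varied with the vascular smooth muscle (r = 0.60, permutation p = 0.00015, adjusted p = 0.00109; rho = 0.48, p = 0.00419; r = 0.49 without the 2 farthest), pericyte and mural (r = 0.54, permutation p = 0.0012, adjusted p = 0.00505; rho = 0.51, p = 0.00225; r = 0.42 without the 2 farthest) and platelet scores (r = 0.45, permutation p = 0.00021, adjusted p = 0.0014; rho = 0.62, p = 0.00006; r = 0.44 without the 2 farthest).

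Mamdc2, at its low level in hSS2, followed the macrophage score (r = 0.72, permutation p = 0.00003, adjusted p = 0.0003; rho = 0.68, p = 0.00005; r = 0.68 without the 2 farthest) and the vascular smooth muscle score (r = 0.69, permutation p = 1e-05, adjusted p = 0.000133; rho = 0.63, p = 0.00009; r = 0.60 without the 2 farthest). Pdgfra ran against the pericyte and mural score (r = -0.56, permutation p = 0.00093, adjusted p = 0.00413; rho = -0.52, p = 0.00136; r = -0.36 without the 2 farthest in Pdgfra). Pdgfb, Pdgfra, Prkg1 and Mamdc2 were not limited to the scores named. Pdgfb also passed with the macrophage (r = 0.51), endothelial (0.51) and platelet scores (0.41). Pdgfra also passed with the vascular smooth muscle (r = -0.56), platelet (-0.50) and macrophage scores (-0.44). Pdgfc passed with the fibroblast (r = 0.65), skeletal muscle (0.55) and vascular smooth muscle scores (0.51). Prkg1 also passed with the skeletal muscle (r = 0.57), vascular smooth muscle (0.56) and macrophage scores (0.52). Mamdc2 also passed with the fibroblast (r = 0.65), pericyte and mural (0.53), skeletal muscle (0.48) and synovial sarcoma scores (0.42). For r, Cd248 and Pdgfa had no list past the adjusted threshold. By rho, Cd248 passed with the macrophage (rho = -0.38, permutation test, adjusted p = 0.0337) and pericyte and mural scores (adjusted p = 0.0251). Pdgfa passed by rho with the endothelial score (rho = 0.43, adjusted p = 0.0317). Centred within group and mouse number range, Cd248 with the macrophage score gave r = -0.35 (permutation test, adjusted p = 0.0449). In hSS1 that r was 0.87, without a test. In the 9 hSS1 tumours, without a test, r was -0.33 for Pdgfb and -0.15 for Pdgfra with pericyte markers. It was 0.34 for Prkg1 with fibroblast and 0.46 for Rgs5 with endothelial markers. Pdgfrb gave -0.35 there with macrophage, 0.39 with fibroblast, 0.49 with vascular smooth muscle, 0.40 with pericyte and 0.30 with platelet markers. Over the hSS2 tumours, centred within group and mouse number range, 28 of 80 pairs passed. Among them r was 0.84 for Pdgfb and pericyte markers, 0.72 for Prkg1 and fibroblast markers and 0.74 for Rgs5 and endothelial markers (permutation p of 1e-05 to 0.00002). For Cd248 the pericyte and mural score gave r = -0.35 (permutation p = 0.0440, adjusted p = 0.0880; rho = -0.44, p = 0.00788; r = -0.42 without the 2 farthest) and the fibroblast score r = 0.09 (permutation p = 0.601, adjusted p = 0.685; rho = 0.02, p = 0.918; r = 0.11 without the 2 farthest).

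**Figure D5:**
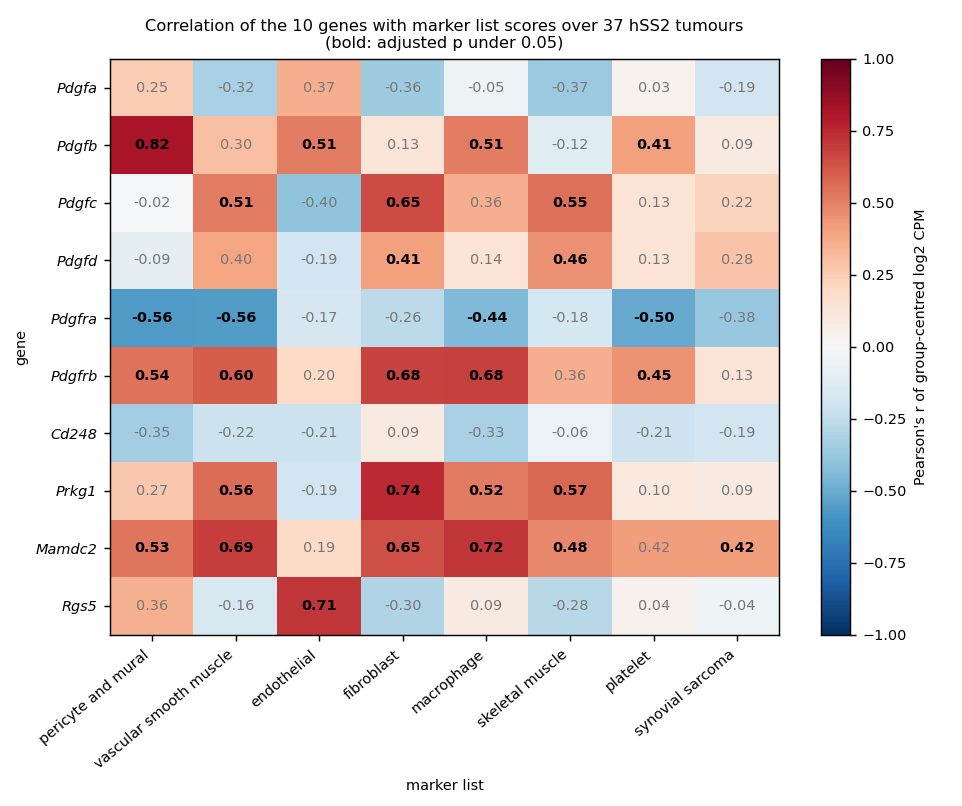
Pearson's r of group-centred log2 CPM of each gene with 8 marker list scores over the 37 hSS2 tumours, with pairs past the adjusted threshold in bold. Pdgfb reaches 0.82 with pericyte and mural markers, Prkg1 0.74 with fibroblast markers and Rgs5 0.71 with endothelial markers, and no value in the Cd248 row is bold.

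Over the same 37 tumours and 17648 genes, the pattern most like that of Prkg1 was held by Col6a2, a chain of collagen VI (r = 0.88), Sgk3 (0.87) and Filip1l (0.85). For Pdgfrb these were Il1r1, the interleukin-1 receptor (r = 0.86), Dkk3 (0.85) and Rab3il1 (0.85). Pdgfd came closest to Lsamp (r = 0.73), Tmcc3 (0.73) and Sorbs3 (0.73), and Mamdc2 to Lyl1 (0.80), Pon3 (0.79) and B230362B09Rik (0.78). The nearest patterns to Cd248 were those of Kif26b (r = 0.75), Gm34176 (0.75) and A830082K12Rik (0.74), and to Pdgfra those of A930012L18Rik (0.78), Cyp46a1 (0.75) and E430024I08Rik (0.73). These values describe likeness over group-centred log2 CPM and carry no test. In the 9 hSS1 tumours the r with the first gene named was -0.14 for Prkg1, -0.23 for Pdgfrb and -0.10 for Pdgfd. It was -0.17 for Cd248 and 0.38 for Pdgfra.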

How the data were processed

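Total RNA of whole tumours was sequenced after ribosomal RNA depletion, as stranded libraries. The authors deposited unnormalized read counts by Ensembl gene, with separate tables for the hSS2 and the hSS1 tumours, and each table was scaled and tested by itself. The submitters' processing notes name STAR 2.7.11, featureCounts 1.6.3 and the build mm10, whereas the annotation release, the strand setting and the treatment of multi-mapping reads were not given in the sources used here. No pair of libraries was identical. Groups came from the genotype labels, and mouse numbers from the titles.

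Tests used edgeR 4.0.16 under R 4.3.3 (filterByExpr on group, TMM, robust quasi-likelihood, two-sided, Benjamini-Hochberg over all genes tested), with 1 fit for the 37 hSS2 and 1 for the 9 hSS1 libraries. The p-values measure the spread between tumours of separate mice. CPM use TMM-scaled totals, and RPKM divide these by the exon length in GENCODE M21. Permutation tests of correlations drew 100000 resamples within groups, two-sided, on log2 CPM with a prior count of 2. The fits were tested on simulated data. The members and the gene lists were chosen with earlier results of these data known. Named genes were the members, the targeted genes, the called genes of each list with the lowest adjusted p (up to 2 higher and 2 lower in each hSS2 comparison), and the 3 genes most like each of 6 members. Fyn, outside that rule, was named after its value was seen. Alternatives were DESeq2 1.42.0, its size factors, no filter on low counts, non-robust dispersions, controls of the same mouse number range, and each library left out in turn, plus, after the data were seen, correlations centred within mouse number ranges and the range as a term between floxed groups. No column of the tables was left unused (0).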

Additional observations from a re-analysis of the deposited data

Results flagged for a closer look

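Pdgfd moved in opposite directions after Pbrm1 disruption in the 2 backgrounds. All 8 hSS2 Pbrm1-fl tumours lay below their control median and all 4 hSS1 Pbrm1-fl tumours above theirs, with log2 fold changes of -1.63 and 4.13. Pbrm1 itself was lowered less in hSS1 (log2 -0.75, SE 0.24) than in hSS2 (log2 -1.27, SE 0.09). The difference of Pdgfd between backgrounds was not tested, because the hSS1 values chose the gene. The hSS2 call was kept in 11 of 21 fits that left out 1 library, and not against controls of the same mouse number range.

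In 50 member-by-group sets of 4 to 8 tumours, 8 had a highest tumour set apart from the others by more than the 95% limit of Dixon's test. Chance alone exceeds that limit in about 1 of 20 sets of normally distributed values. The CPM were used untransformed and their distribution was not tested, so 8 of 50 is not read as an excess. Pdgfd was at 133 CPM in hSS1 Pbrm1-fl replicate 3, next to 31.7 CPM in the nearest tumour, and at 7.01 CPM in hSS2 Pbrm1-fl replicate 1, next to 3.87 CPM. Mamdc2 was at 6.04 CPM in that same hSS2 tumour, next to 2.41 CPM. Cd248 was at 224 CPM in hSS2 Pbrm1-fl replicate 8, next to 150.1 CPM. Pdgfa was at 213 CPM in hSS2 Arid1a-fl replicate 1 and at 174 CPM in hSS2 Arid1b-fl replicate 2, next to 121 and 103 CPM. Pdgfra was at 888 CPM in hSS2 Arid1a-fl replicate 7, next to 576 CPM. Pdgfb was at 81.5 CPM in hSS2 Arid1b-fl replicate 5, next to 45.8 CPM, the tumour whose summed platelet markers stood at 1434 CPM.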

How the results depend on the processing

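The number of members called in hSS2 was 1 for Pbrm1-fl, 1 for Arid1a-fl and 0 for Arid1b-fl. Without a filter on low counts it was 0 in the first 2, beside 3.03% and 0.598% of genes. Pdgfd then had an edgeR adjusted p of 0.0589 and Cd248 of 0.0639, among more genes tested. DESeq2's Wald test called 3 for Arid1a-fl, beside 7.6% of genes, where edgeR called 3.17%. When each library was left out in turn, the count ranged from 0 to 1 for Pbrm1-fl, from 0 to 3 for Arid1a-fl and stayed at 0 for Arid1b-fl. When only controls of the matching mouse number range entered, the count stayed at 1 in the first 2, but the gene called was Cd248 in place of Pdgfd and Pdgfa in place of Cd248; the cause was not tested.

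Directions turned for members near 0. With those controls the log2 fold change of Pdgfb became -0.29 for Pbrm1-fl and 0.40 for Arid1a-fl, that of Pdgfc 0.10 for Arid1a-fl and -0.28 for Arid1b-fl, that of Pdgfd -0.090 and that of Prkg1 -0.25 for Arid1b-fl. Without the filter Pdgfc stood at 0.0067 for Arid1a-fl. Leaving out 1 library gave ranges across 0 for Pdgfa (-0.13 to 0.027) and Prkg1 (-0.22 to 0.20) in Pbrm1-fl, Pdgfb (-0.24 to 0.069) and Pdgfc (-0.24 to 0.12) in Arid1a-fl, and Pdgfc (-0.11 to 0.16), Pdgfd (-0.13 to 0.33) and Pdgfra (-0.015 to 0.10) in Arid1b-fl. None of these was called in any of those fits.

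Correlated member pairs numbered 18, and 7 without centring, where differences between groups enter the values, and 12 centred within group and mouse number range, an alternative chosen after the data were seen. In hSS1 the count of members with groups apart was 4 to 5 under the alternatives that gave a value. No paired analysis was possible because the labels give no replicate numbers shared between groups and do not say which tumours came from littermates. The mouse number ranges were not treated as pairs. Since each floxed group fills 1 range, a fit with the range as a term gives the same contrast as the controls of that range. Between floxed groups that term, an alternative chosen after the data were seen, left 0 of 30 differences called by edgeR in place of 2 (3 with DESeq2's Wald test and no term), with 3 at an unadjusted p under 0.05.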
